A study of Caenorhabditis elegans with 12 samples.

Results

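The 37 body wall and pharyngeal muscle genes of Caenorhabditis elegans described here were set by a list of sequence names. The list was chosen with earlier results of these data known. All 37 genes were found among the 46589 genes of the deposited count tables. Among their products are 4 myosin heavy chains and 3 myosin light chains, paramyosin, 4 actins, 7 tropomyosin and troponin subunits and 2 actin-binding proteins. The others are 7 attachment and dense body proteins, 2 calcium channels, 1 transcription factor and 6 proteins grouped here as giant and M line proteins. That group holds ttn-1, unc-22, unc-89 and unc-82, and also the shorter genes dim-1 and unc-23. RNA of whole worms was sequenced at adult day 1, with 1 library per strain and temperature and about 5000 worms from 3 plates behind each. At 22 °C the strains were the ung-1 mutant crossed with the tau-aggregate strain BR5270 ("ung-1 agg"), the ung-1 mutant crossed with the anti-aggregate strain BR5271 ("ung-1 anti"), the ung-1 mutant, BR5270 ("agg"), BR5271 ("anti") and wild type. At 20 °C the same design was run with the nth-1 mutant in place of ung-1, giving nth-1 agg, nth-1 anti, nth-1, agg, anti and wild-type worms. ung-1 encodes a uracil DNA glycosylase and nth-1 an endonuclease III-like glycosylase, both enzymes of base excision repair. The labels give no allele, and no strain was made at both temperatures with a glycosylase mutation, so ung-1 against nth-1 and 22 °C against 20 °C cannot be told apart for the mutants. As usually described, and not in the labels, BR5270 expresses an aggregation-prone tau fragment and BR5271 an anti-aggregating version of it in neurons from the rab-3 promoter, with a fluorescent marker driven in pharyngeal muscle by the myo-2 promoter.

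Muscle shortens when thick filaments of myosin, laid on a paramyosin core, pull on thin filaments of actin, and calcium binding to troponin moves tropomyosin to let them do so. In the worm the body wall muscle cells tie each filament array to the cuticle through M lines and dense bodies, which are integrin attachment sites, and across a basement membrane to the hypodermis, while the pharynx, the feeding pump, has its own myosins. A day 1 adult holds a fixed set of muscle cells beside a large germ line, so the level of a muscle transcript in whole-worm RNA is a share of the total, and fewer muscle cells, less RNA per muscle cell and more RNA from other tissues cannot be told apart.

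Levels are given as CPM, the reads of a gene scaled to a common library size after TMM scaling, and comparisons between genes as CPM per kilobase of exon (RPKM). Library totals ran from 15124127 to 35204808 counts, and 391 of the 444 values of a member in a library (88.1%) had a 95% Poisson interval within 20% of the value; they hold the error of counting and no other. Both targeted genes served as a check of the labels. ung-1 had 14.5, 11.9 and 14.1 CPM in ung-1 agg, ung-1 anti and ung-1 worms, against 39.9, 46.6 and 45.9 CPM in agg, anti and wild-type worms of 22 °C. nth-1 had 5.08, 11.3 and 5.06 CPM in nth-1 agg, nth-1 anti and nth-1 worms, against 22.96, 26.8 and 26.4 CPM in agg, anti and wild-type worms of 20 °C. The library labelled nth-1 anti therefore held more nth-1 RNA than the other nth-1 libraries and less than the wild-type background, and each comparison between groups is given with and without it. The titles of the 3 libraries with the nth-1 genotype name ung-1 instead, and the genotype label was used. The ung-1 transcript was also lower there, at 28.01, 49.6 and 27.01 CPM in nth-1 agg, nth-1 anti and nth-1 worms, against 37.7, 62.3 and 62.1 CPM in agg, anti and wild-type worms of 20 °C, though above its level in the ung-1 libraries of 22 °C. As each strain and temperature has 1 library, p-values measure only the spread between these libraries around the fitted terms.

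The muscle genes as a group were highest in 2 libraries. They took 1.87% of all counts in nth-1 agg worms and 1.82% in nth-1 worms, against 0.676% in nth-1 anti worms. The 2 agg libraries followed, with 0.991% at 20 °C and 0.882% at 22 °C, against 0.413% and 0.571% in the anti libraries and 0.469% and 0.491% in the wild-type libraries of the same temperatures. The 3 ung-1 libraries held between 0.543% and 0.570%. For 33 of the 37 genes nth-1 and nth-1 agg were the 2 highest of the 12 libraries, against 27.7% of all 15245 genes tested, and for 34 genes both agg libraries of wild-type background lay above both wild types, against 47% of all. The genes outside these counts were act-2, unc-60 and pat-3, which were missing from both, and hlh-1, which was missing from the first.

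**Figure D1:**
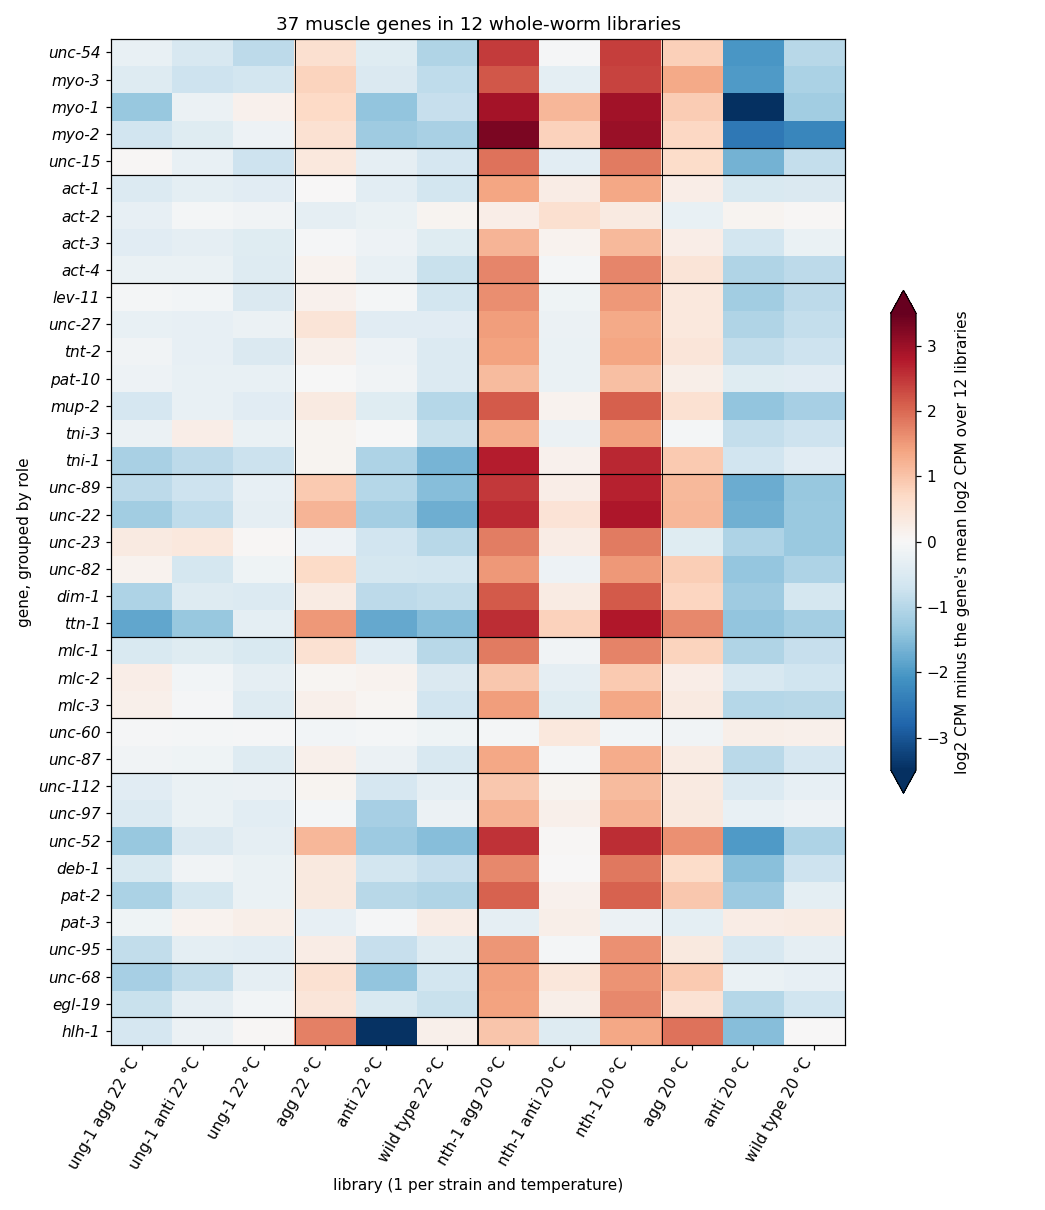
Level of each of the 37 muscle genes in each of the 12 libraries, as log2 CPM minus the gene's mean log2 CPM over the libraries; genes run down the page by role, libraries from left to right with 22 °C first, and colours are clipped at the ends of the scale. The nth-1 agg and nth-1 columns are highest for 33 genes, the 2 agg columns are above both wild types for 34, and act-2, unc-60 and pat-3 stay near their means throughout.

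Of the 4 myosin heavy chains, unc-54 (F11C3.3) encodes myosin heavy chain B, the main motor of body wall thick filaments, and lies on chromosome I at 14855901 to 14863482 on the minus strand of WBcel235, with 6204 exonic bases and no exon shared with another gene. At 20 °C unc-54 had 3857, 682 and 3773 CPM in nth-1 agg, nth-1 anti and nth-1 worms, against 1263, 173 and 362 CPM in agg, anti and wild-type worms. At 22 °C unc-54 had 597, 485 and 379 CPM in ung-1 agg, ung-1 anti and ung-1 worms, against 1041, 525 and 339.7 CPM in agg, anti and wild-type worms. Both nth-1 and nth-1 agg stood above every other library, both agg libraries above both wild types, and anti at 20 °C was the lowest of all. Per length unc-54 was the most abundant heavy chain in every library, at 622 RPKM in nth-1 agg worms and 58.3 RPKM in wild-type worms of 20 °C.

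The pharyngeal heavy chains myo-1 and myo-2 were near the floor in most libraries and had the widest ranges of the 37 members over the 12 libraries, 6.23 and 5.57 on the log2 scale, against 4.57 in unc-52 and 4.48 in unc-54. myo-1 had 20.0, 5.998 and 20.5 CPM in nth-1 agg, nth-1 anti and nth-1 worms, against 4.96, 0.183 and 1.14 CPM in agg, anti and wild-type worms of 20 °C. In the 22 °C set myo-1 had 1.07, 2.32 and 2.94 CPM with the ung-1 mutation (agg, anti, no tau), against 4.28, 1.02 and 1.52 CPM in agg, anti and wild-type worms. Only 3 reads of myo-1 were counted in anti worms of 20 °C, giving an interval of 0.0377 to 0.534 CPM, so ratios to that library say little. myo-2, on chromosome X at 12468061 to 12475348 and picked here after its values were seen, had the largest ratio of any member between nth-1 and wild type at 20 °C, 25.2 against 0.630 CPM, or 5.13 on the log2 scale with a prior count of 2. The nth-1 strain carries no tau transgene by its label. Its myo-2 level, like the 30.4 CPM of nth-1 agg worms, exceeded the 5.14 CPM of agg worms and the 0.630 CPM of wild type. With anti tau at 20 °C, myo-2 had 5.39 CPM in nth-1 anti and 0.548 CPM in anti worms. At 22 °C it had 1.94, 2.32 and 2.75 CPM in ung-1 agg, ung-1 anti and ung-1 worms. The agg, anti and wild-type worms of 22 °C had 4.46, 1.30 and 1.40 CPM of myo-2. Any part of the marker in these levels was not tested. myo-3, the body wall heavy chain A of the thick filament centre and also picked after its values were seen, had 232, 40.5 and 261 CPM in nth-1 agg, nth-1 anti and nth-1 worms, against 127, 12.9 and 23.8 CPM in agg, anti and wild-type worms of 20 °C. The ratio of unc-54 to myo-3 counts moved far less than either gene, from a lowest value of 9.96 in agg worms of 20 °C up to 16.9 in nth-1 anti worms.

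Paramyosin, which forms the core of the thick filament, is encoded by unc-15 (F07A5.7). unc-15 had 1390.0, 285 and 1315 CPM in nth-1 agg, nth-1 anti and nth-1 worms, against 572, 116 and 207 CPM in agg, anti and wild-type worms at 20 °C. With ung-1 mutated at 22 °C it had 379, 307 and 222 CPM in agg, anti and tau-free worms, against 473, 299 and 245 CPM in the agg, anti and wild-type libraries. The order was that of unc-54 at 20 °C. At 22 °C unc-15 was higher in agg than in wild-type worms, and the ung-1 agg value lay between them.

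The regulatory light chains mlc-1 and mlc-2, which sit on the myosin neck, are near-identical neighbours on chromosome X, so the split of reads between them is uncertain. mlc-1 had 646, 168 and 611 CPM in nth-1 agg, nth-1 anti and nth-1 worms, against 316, 88.3 and 107 CPM in agg, anti and wild-type worms at 20 °C. In the 22 °C libraries mlc-1 had 127, 137 and 127 CPM in ung-1 agg, ung-1 anti and ung-1 worms, against 265, 144 and 93.8 CPM in agg, anti and wild-type worms. mlc-2 differed less, with 662, 277 and 651 CPM in the nth-1 agg, nth-1 anti and nth-1 libraries, against 404, 231 and 213 CPM in agg, anti and wild type of 20 °C. Its 22 °C values were 401, 321 and 275 CPM in ung-1 agg, ung-1 anti and ung-1 worms, against 358, 375 and 242 CPM in agg, anti and wild-type worms, and here ung-1 agg, not agg, was the highest. mlc-3, the alkali light chain, was highest at 711 CPM in nth-1 agg worms and lowest at 129.6 CPM in anti worms, both of 20 °C.

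Among the actins, the thin filament protein, act-4 followed the myosins and act-2 did not. act-4 had 1833, 531 and 1841 CPM in nth-1 agg, nth-1 anti and nth-1 worms, against 764, 271 and 294 CPM in agg, anti and wild-type worms at 20 °C. Its values at 22 °C were 476, 476 and 406 CPM in ung-1 agg, ung-1 anti and ung-1 worms, against 608, 463 and 328 CPM in agg, anti and wild-type worms. act-2, on chromosome V at 11076777 to 11078154 and known to be expressed outside muscle as well, had the highest RPKM of the actins in both wild-type libraries. act-2 had 1224, 1524 and 1291 CPM in nth-1 agg, nth-1 anti and nth-1 worms, against 864, 1111 and 1064 CPM in agg, anti and wild-type worms of 20 °C. The 22 °C values of act-2 were 858, 999 and 949.7 CPM in ung-1 agg, ung-1 anti and ung-1 worms, against 838, 881 and 1107 CPM in agg, anti and wild-type worms. Both agg libraries were below both wild types for act-2, and all 3 nth-1 libraries were above all 3 of wild-type background at 20 °C, as for 5 members and 6.05% of all genes. The actin coding sequences are nearly the same, act-1 and act-3 also overlap genes on the opposite strand by 150 and 272 bases, and whether the counting used strand or shared reads between copies is not given in the sources used here.

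Tropomyosin and the troponins, which make the thin filament calcium-sensitive, were all highest in nth-1 agg and nth-1 worms at 20 °C, followed by agg, nth-1 anti, wild-type and anti worms. pat-10, the body wall troponin C that binds calcium, had 1061, 413 and 1011 CPM in nth-1 agg, nth-1 anti and nth-1 worms, against 567, 367 and 368 CPM in agg, anti and wild-type worms at 20 °C. For pat-10 at 22 °C the values were 434, 408 and 406 CPM in ung-1 agg, ung-1 anti and ung-1 worms, against 480.1, 452 and 349.9 CPM in agg, anti and wild-type worms. Of the 7 genes it had the highest mean RPKM over the libraries and the smallest range. tni-1, a troponin I, was the most varied of them, with 73.7, 12.37 and 68.6 CPM in nth-1 agg, nth-1 anti and nth-1 worms, against 20.96, 7.01 and 8.35 CPM in agg, anti and wild-type worms at 20 °C. At 22 °C tni-1 had 5.05, 5.90 and 6.63 CPM in ung-1 agg, ung-1 anti and ung-1 worms, against 11.8, 5.29 and 3.61 CPM in agg, anti and wild-type worms. Over the 7 genes, nth-1 worms had between 2.74 and 9.43 times the wild-type level at 20 °C, with a median of 4.45 times, and agg worms had a median of 2.32 times at 20 °C and 1.80 times at 22 °C.

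The actin-binding proteins split. unc-87, a calponin-like protein that stabilises thin filaments, had 613, 229 and 597 CPM in nth-1 agg, nth-1 anti and nth-1 worms, against 297, 125 and 160.1 CPM in agg, anti and wild-type worms at 20 °C. For the 22 °C set unc-87 had 222, 218 and 177 CPM in ung-1 agg, ung-1 anti and ung-1 worms, against 275, 209 and 166 CPM in agg, anti and wild-type worms. unc-60, which encodes a muscle and a non-muscle form of the filament-severing protein cofilin that these gene counts do not separate, hardly varied. unc-60 had 545, 747 and 541 CPM in nth-1 agg, nth-1 anti and nth-1 worms, against 530.1, 656 and 647 CPM in agg, anti and wild-type worms at 20 °C. All of its 22 °C values lay close together, at 561, 544 and 561 CPM in ung-1 agg, ung-1 anti and ung-1 worms, against 541, 548 and 513 CPM in agg, anti and wild-type worms. Its highest library was nth-1 anti, followed by anti and wild type of 20 °C.

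The giant proteins of the sarcomere were among the members with the largest ratios between agg and wild type. ttn-1 (W06H8.8) encodes a titin-like elastic protein and spans 6120909 to 6202632 on the minus strand of chromosome V, with 56044 exonic bases. At 20 °C ttn-1 had 52.6, 15.2 and 60.4 CPM in nth-1 agg, nth-1 anti and nth-1 worms, against 27.98, 3.35 and 3.82 CPM in agg, anti and wild-type worms. At 22 °C ttn-1 had 2.47, 3.47 and 6.83 CPM in ung-1 agg, ung-1 anti and ung-1 worms, against 25.1, 2.505 and 3.04 CPM in agg, anti and wild-type worms. The agg libraries thus stood 8.05 times above wild type at 22 °C and 7.18 times at 20 °C, while ung-1 agg was the lowest of the 12 libraries. The other giants, picked here after their values were seen, were unc-22 (twitchin, a kinase of the A band) and unc-89 (an obscurin-like M line protein). unc-22 had 19.7, 36.5, 103 and 13.999 CPM in ung-1 agg, ung-1, agg and wild-type worms of 22 °C, and 280.1, 323, 102 and 18.6 CPM in nth-1 agg, nth-1, agg and wild-type worms of 20 °C. unc-89 followed the same order, with 22.0, 33.9, 78.1 and 14.7 CPM in those libraries of 22 °C, and 229.6, 265, 91.1 and 16.4 CPM in those of 20 °C.

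dim-1, an immunoglobulin-domain protein of the filament lattice, was the most abundant of this class per length. dim-1 had 320.3, 86.9 and 320.2 CPM in nth-1 agg, nth-1 anti and nth-1 worms, against 120.2, 30.4 and 46.8 CPM in agg, anti and wild-type worms at 20 °C. With 22 °C growth dim-1 had 33.6, 52.6 and 51.5 CPM in ung-1 agg, ung-1 anti and ung-1 worms, against 88.3, 38.1 and 39.6 CPM in agg, anti and wild-type worms. Also grouped here with the giant and M line proteins is unc-23, a BAG-domain co-chaperone with 2231 exonic bases, picked after its values were seen. unc-23 had 102, 35.1 and 103 CPM in nth-1 agg, nth-1 anti and nth-1 worms, against 22.1, 14.01 and 12.05 CPM in agg, anti and wild-type worms at 20 °C. Its 22 °C values were 36.9, 38.4 and 30.6 CPM in ung-1 agg, ung-1 anti and ung-1 worms, against 26.3, 18.6 and 15.1 CPM in agg, anti and wild-type worms. It was the member with all 3 libraries of each mutant above all 3 of wild-type background at the same temperature, as for 0.505% of all genes.

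The attachment proteins were the most mixed class. unc-52 (ZC101.2) encodes perlecan, the basement membrane proteoglycan that anchors dense bodies and M lines, on chromosome II at 14647321 to 14684456. At 20 °C unc-52 had 610.2, 107 and 635 CPM in nth-1 agg, nth-1 anti and nth-1 worms, against 321, 26.7 and 50.1 CPM in agg, anti and wild-type worms. At 22 °C unc-52 had 42.0, 73.6 and 85.1 CPM in ung-1 agg, ung-1 anti and ung-1 worms, against 234.8, 43.9 and 37.4 CPM in agg, anti and wild-type worms. The agg worms had 6.26 times the wild-type level at 22 °C and 6.39 times at 20 °C, and ung-1 agg worms 0.179 times the agg level. pat-3 (ZK1058.2), the beta integrin that spans the membrane at these sites and is also known from the gonad, went the other way. pat-3 had 125, 182 and 135 CPM in nth-1 agg, nth-1 anti and nth-1 worms, against 124, 188 and 189 CPM in agg, anti and wild-type worms at 20 °C. For pat-3 at 22 °C the values were 139.7, 169 and 181 CPM in ung-1 agg, ung-1 anti and ung-1 worms, against 129, 151 and 188 CPM in agg, anti and wild-type worms. Its 4 agg libraries and nth-1 were the 5 lowest of the 12. Its partner alpha integrin pat-2, given after its values were seen, had the opposite pattern, with 76.8, 77.8, 35.5 and 14.5 CPM in nth-1 agg, nth-1, agg and wild-type worms of 20 °C.

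The calcium channels and the transcription factor had lower levels. unc-68, the ryanodine receptor that releases calcium from the sarcoplasmic reticulum, had 83.6, 40.6 and 90.6 CPM in nth-1 agg, nth-1 anti and nth-1 worms, against 57.3, 26.3 and 25.004 CPM in agg, anti and wild-type worms at 20 °C. In 22 °C worms unc-68 had 13.7, 17.03 and 24.6 CPM with ung-1 mutated (agg, anti, no tau), against 44.5, 11.9 and 19.7 CPM in agg, anti and wild-type worms. Likewise egl-19, the voltage-gated calcium channel of the muscle membrane, was highest at 24.4 CPM in nth-1 worms and lowest at 3.78 CPM in anti worms, both of 20 °C. hlh-1 (B0304.1), the worm MyoD, a transcription factor of body wall muscle, had too few reads to order its libraries beyond the broadest contrast. hlh-1 had 16, 8 and 29 reads in nth-1 agg, nth-1 anti and nth-1 worms, against 32, 3 and 13 reads in agg, anti and wild-type worms at 20 °C. In the 22 °C set it had 7, 8 and 19 reads in ung-1 agg, ung-1 anti and ung-1 worms, against 39, 1 and 14 reads in agg, anti and wild-type worms. In CPM the agg libraries were the 2 highest for hlh-1, at 1.72 CPM (interval 1.22 to 2.35) at 22 °C and 1.89 CPM (interval 1.29 to 2.67) at 20 °C, against 1.31 CPM in nth-1 worms, whose interval of 0.877 to 1.88 overlaps both, so the order of agg and nth-1 was not resolved.

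**Figure D2:**
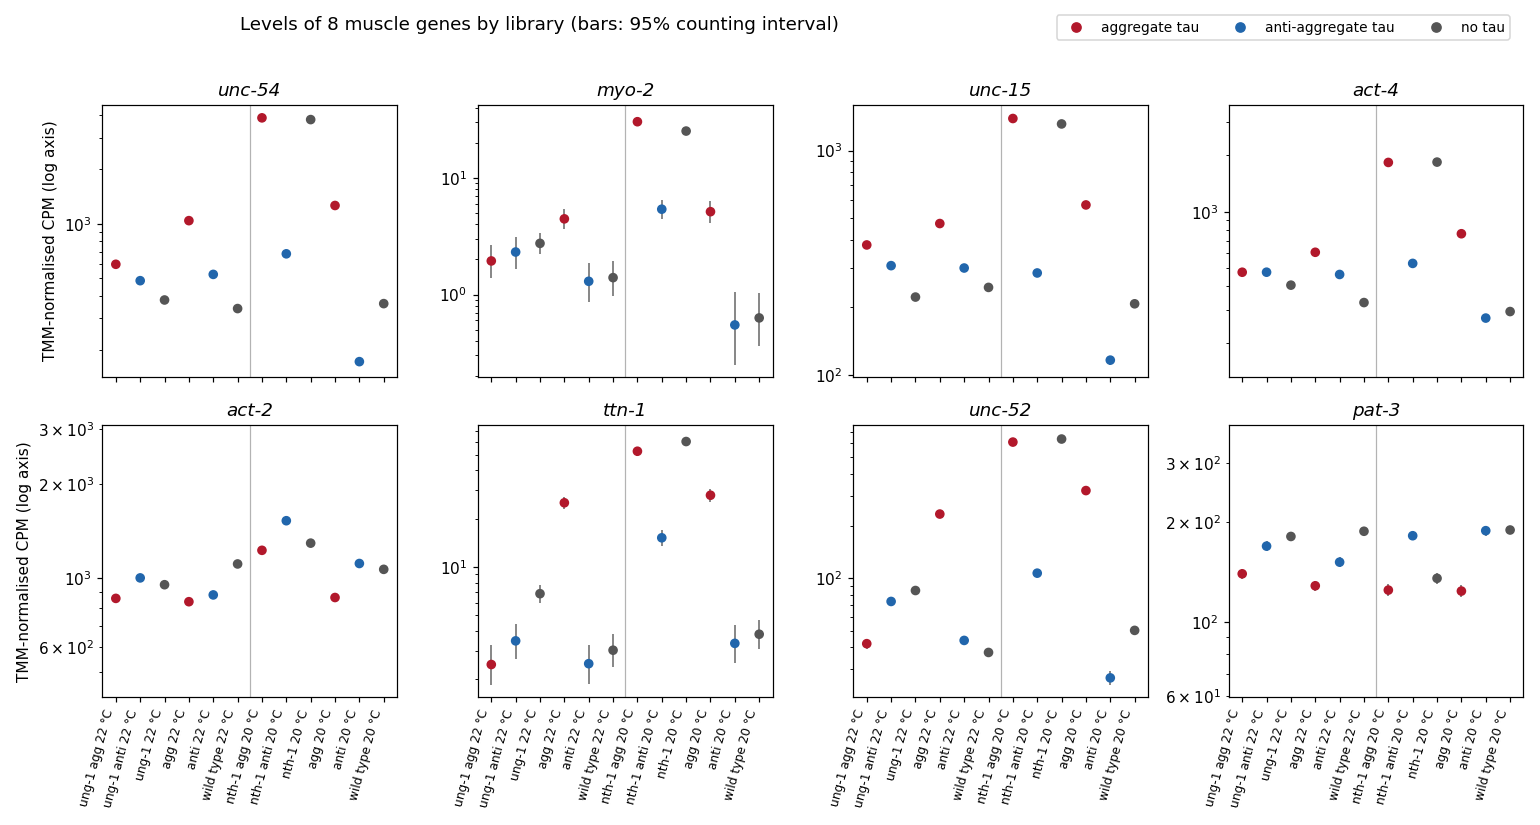
TMM-normalised CPM on a log axis for 8 muscle genes in each of the 12 libraries, coloured by tau state, with 95% Poisson counting intervals (many are smaller than the point) and a grey line between the 22 °C libraries on the left and the 20 °C libraries on the right. unc-54, unc-15, act-4, myo-2, ttn-1 and unc-52 peak in nth-1 agg and nth-1, where unc-54 has 3857 and 3773 CPM, while act-2 and pat-3 do not.

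In agg worms of wild-type background the muscle genes took a larger share of the counts than in wild-type worms, at both temperatures. In the pairs of single libraries the median muscle gene had 1.93 times the wild-type level at 22 °C and 2.45 times at 20 °C. At least 2-fold higher were 18 of 37 genes at 22 °C (32.4% of all 15245 genes tested) and 24 of 37 at 20 °C (38.6% of all). By class the median ratio at 20 °C was 4.70 for myosin heavy chains, 4.63 for giant and M line proteins, 2.43 for light chains, 2.32 for tropomyosin and troponins, 1.57 for attachment proteins and 1.53 for actins. At 22 °C the same classes had medians of 3.06, 3.88, 1.79, 1.80, 1.64 and 1.46.

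In edgeR's quasi-likelihood fit over all 12 libraries, none of the 37 genes passed an adjusted p of 0.05 for agg over no tau in wild-type backgrounds, against 1.51% of all genes. The log2 fold change was positive for 34 of 37 members, against 60.6% of all genes, with a median of 1.19, against 0.46 over all genes. At an unadjusted p under 0.05, 19 members were higher and pat-3 was lower, against 18.4% and 15.1% of all genes. The smallest adjusted p was 0.0501 for ttn-1, at 2.96 on the log2 scale (SE 0.53), and unc-22 followed with 2.65 (SE 0.55, adjusted p = 0.0761) in edgeR. DESeq2 on the same counts called 12 members higher and 1 lower, against 12.5% and 11.5% of the genes it tested. In the edgeR fit without the library labelled nth-1 anti, 28 members rose and pat-3 fell, against 17.3% and 18% of all genes. The log2 value was then 2.63 for unc-22 (SE 0.25, adjusted p = 0.0034), with unc-54 at 1.72 (SE 0.44, adjusted p = 0.0259), act-1 0.69 (SE 0.13, adjusted p = 0.0138) and pat-3 -0.59 (SE 0.12, adjusted p = 0.0162). The 8 members that did not pass there were act-2, act-3, myo-1, unc-60, unc-97, unc-95, tni-3 and hlh-1. Leaving out ung-1 anti instead gave the same 28 and 1, because in this fit the loss of either library leaves the other as the single library behind its term. Leaving out ung-1 agg or nth-1 agg gave 1 call each, and leaving out any of the other 8 libraries gave none. The median ran from 0.79 without agg of 20 °C to 1.49 without agg of 22 °C.

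Against the anti strain, whose tau differs from that of agg worms by aggregation, the picture was alike, with the same agg libraries on top. The median muscle gene had 1.84 times the anti level at 22 °C and 2.82 times at 20 °C, and for 32 genes both agg libraries were above both anti libraries, against 40.2% of all genes. In edgeR's fit of all libraries no member passed for agg over anti, against 0.977% of all genes, and 34 of 37 values were positive (58.5% of all) with a median of 1.22, against 0.30 over all genes. At an unadjusted p under 0.05, 18 members were higher and 1 lower (14.9% and 11.6% of all). DESeq2 called 16 members higher and none lower, against 8.71% and 4.97% of all genes. Without nth-1 anti, edgeR called 25 members higher, hlh-1 among them, and pat-3 lower, against 12% and 14.3% of all genes, and without ung-1 anti the same 25 and 1. Leaving out ung-1 agg or nth-1 agg gave 1 call each, the other 8 libraries none. This comparison and the one with wild type share the agg libraries.

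Anti worms, in contrast, were close to wild type and not alike at the 2 temperatures. The median muscle gene had 1.195 times the wild-type level in anti worms at 22 °C, with 26 of 37 higher (52.7% of all genes), and 0.841 times at 20 °C, with 5 of 37 higher (47.5% of all genes). In edgeR none of the members passed for anti over no tau in wild-type backgrounds (0.00656% of all genes), 16 were positive (51.2% of all), and hlh-1 was lower and none higher at an unadjusted p under 0.05 (0.249% and 0.722% of all). DESeq2 called none, against 0.0262% of all genes higher. The median log2 fold change was -0.10, against 0.01 over all genes. Without nth-1 anti none passed either (0.00625% of all genes higher, 0% lower). The direction rested on single libraries, with 6 members positive and a median of -0.29 without anti of 22 °C, 11 and -0.12 without wild type of 22 °C, 27 and 0.28 without anti of 20 °C, and 19 and 0.088 without wild type of 20 °C.

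Muscle genes took their largest shares of the counts in nth-1 agg and nth-1 worms. The median muscle gene had 5.35 times the wild-type level in nth-1 worms at 20 °C. At least 2-fold higher were 34 of 37 genes, against 40% of all genes. The exceptions were act-2, at 0.28 on the log2 scale, unc-60 at -0.26 and pat-3 at -0.48. The class medians were 13.8 times for myosin heavy chains, 11.99 for giant and M line proteins, 5.05 for light chains, 4.45 for tropomyosin and troponins, 4.41 for calcium channels, 3.70 for attachment proteins and 3.10 for actins. With agg tau the difference was smaller: nth-1 agg worms had a median of 2.07 times the agg level, and 21 of 37 genes were at least 2-fold higher (20.2% of all). With anti tau it was 1.91 times, and 17 of 37 genes (15.4% of all).

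The nth-1 anti library kept most of its muscle genes far below the nth-1 library. There the median was 0.316 times the nth-1 level, 34 of 37 genes were at least 2-fold lower, against 36.3% of all genes, and 33 genes lay between nth-1 above and wild type of 20 °C below, against 34.2% of all genes. The same library had 11.3 CPM of nth-1, against 5.06 CPM in nth-1 and 26.4 CPM in wild-type worms. Its nth-1 transcript thus also lay between those of nth-1 and wild-type worms, although the library is labelled as a mutant. Any link between its nth-1 level and its muscle levels was not tested, and a single library cannot show whether they move together.

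Averaged over the 3 tau states in edgeR's additive fit, no member passed for nth-1 over wild type at 20 °C, as no gene did (0% of all), although 34 members were higher at an unadjusted p under 0.05, against 20.4% of all genes. The median log2 fold change was 1.51, against 0.17 over all genes, and the smallest adjusted p of a member was 0.0692. DESeq2 called 33 members higher, against 16.8% of all genes. Without nth-1 anti, 30 members rose in edgeR, against 18.5% of all genes. On the log2 scale unc-23 was then at 2.72 (SE 0.25, adjusted p = 0.00528), unc-54 at 2.88 (SE 0.54, adjusted p = 0.0118), unc-15 2.27 (SE 0.41, adjusted p = 0.0112), act-4 2.13 (SE 0.34, adjusted p = 0.00896) and pat-10 1.26 (SE 0.18, adjusted p = 0.00775). The 7 that did not pass were act-2, unc-60, pat-3, ttn-1, unc-52, unc-68 and hlh-1. Without ung-1 agg 23 members rose, against 3.98% of all genes, and leaving out any of the other 10 libraries gave no call.

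In the pair of single libraries at 22 °C, 31 of 37 muscle genes were higher in ung-1 than in wild-type worms, against 53.8% of all genes. The median muscle gene had 1.19 times the wild-type level in ung-1 worms, and 5 of 37 were at least 2-fold higher, against 12% of all genes: unc-22, unc-89, unc-52, ttn-1 and unc-23. Averaged over tau states no member passed for ung-1 over wild type in edgeR, as no gene did (0% of all), 14 were positive (54.4% of all), 1 was higher and none lower at an unadjusted p under 0.05 (0.262% and 0.787% of all), DESeq2 called none (0.0197% of all higher), and the median was -0.02, against 0.03 over all genes. Without nth-1 anti none passed either (0% of all). The direction was not stable: 35 members were positive with a median of 0.25 without ung-1 agg, and 29 with a median of 0.20 without anti of 22 °C. Without ung-1 anti 3 were positive with a median of -0.48, and without wild type of 22 °C 7 with a median of -0.24. The difference between the mutants, a comparison added after the data were seen, had a median of 1.52 for the nth-1 effect minus the ung-1 effect, against 0.19 over all genes, with 35 of 37 values positive (56.9% of all). No member passed in edgeR (0% of all genes), and 27 were higher at an unadjusted p under 0.05 (8.71% of all). DESeq2 called 1 member higher, against 48 higher and 26 lower among all genes. Without nth-1 anti, 15 members rose in this difference, against 2.46% of all genes; mutation and temperature cannot be told apart here.

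**Figure D3:**
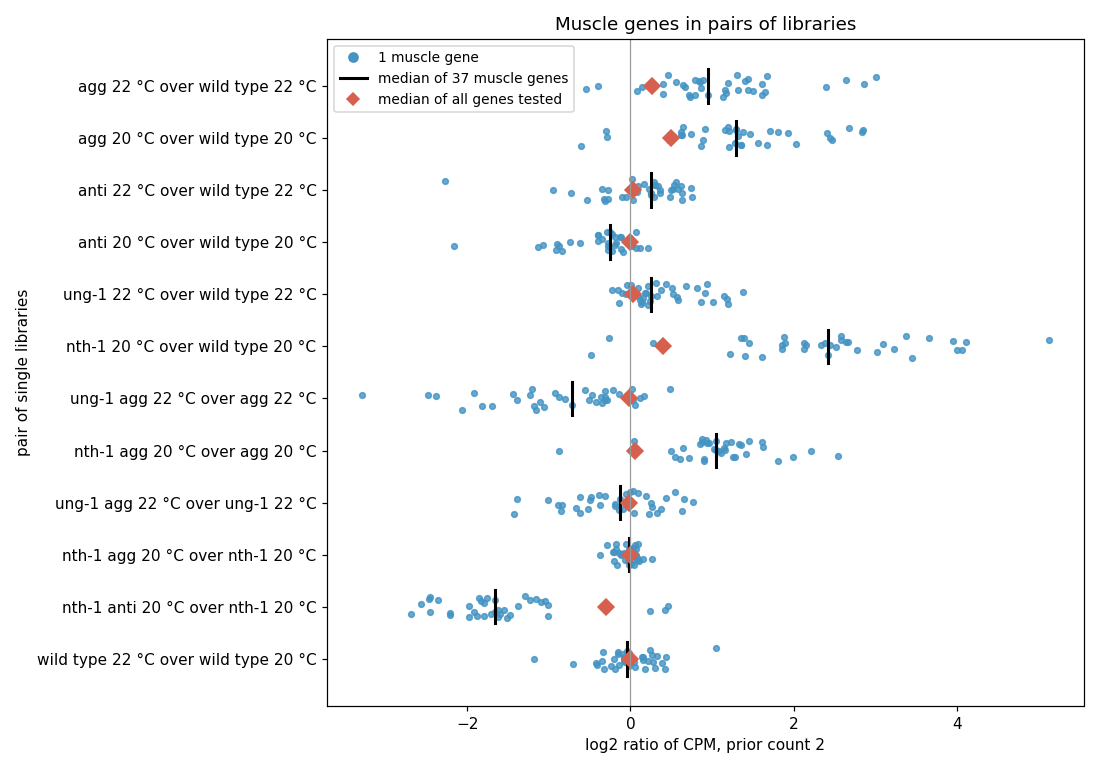
log2 ratio of CPM (prior count 2) of each of the 37 muscle genes in 12 pairs of single libraries, with the first-named library on top of the ratio; the black bar is the median muscle gene and the red diamond the median of all 15245 genes tested. The muscle median lies right of the diamond for agg over wild type and nth-1 over wild type, where it is 2.42, left of it for ung-1 agg over agg and nth-1 anti over nth-1, and around 0 for nth-1 agg over nth-1.

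On glycosylase-mutant backgrounds no muscle gene passed a test between the agg strain and its tau-free partner, with 1 library of each behind each ratio. On wild-type backgrounds none passed in edgeR with all libraries either. There DESeq2 called 12 members higher and 1 lower, against 1717 higher and 1587 lower among all genes. nth-1 agg worms had 0.991 times the nth-1 level for the median gene, with all 37 between -0.37 and 0.27 on the log2 scale, and ung-1 agg worms had 0.914 times the ung-1 level, with all 37 between -1.43 and 0.77. The libraries that make up these ratios differ at the 2 temperatures. The summed muscle level was 3.86 and 3.91 times wild type in nth-1 and nth-1 agg worms, and 1.08 and 1.21 times in ung-1 and ung-1 agg worms. In edgeR the median log2 fold change for agg over no tau in mutant backgrounds was -0.03, and 15 of 37 were positive (47.3% of all). No member passed (0% of all genes), and none had an unadjusted p under 0.05 (0.19% of all higher, 0.203% lower). DESeq2 called none, as it called no gene at all. Without nth-1 anti none passed either (0% of all). The direction depended on the libraries used: 1 member was positive with a median of -0.39 without ung-1, and 2 with a median of -0.46 without nth-1 agg, where 2 members had an unadjusted p under 0.05. Without ung-1 agg 32 were positive with a median of 0.32, and without nth-1 27 with a median of 0.37. For unc-54 the value was 0.26 with an SE of 0.68, which is too wide to tell an effect of the size seen in wild-type background from none.

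The difference between the agg effect in mutant and in wild-type backgrounds was positive for 3 of 37 members, against 41.2% of all genes, with a median of -1.07 on the log2 scale, against -0.33 over all genes. No member passed in edgeR with all libraries, against 0.0131% of all genes; 8 were lower and none higher at an unadjusted p under 0.05 (8.8% and 2.9% of all), and the smallest adjusted p was 0.217, for ttn-1. DESeq2 called 4 members lower and none higher, against 2.83% and 0.23% of all genes. Without nth-1 anti 4 members fell in edgeR, against 0.924% of all genes, and without ung-1 anti or without all 3 nth-1 libraries the same 4. They were 4 of the 5 members with at least 8000 exonic bases, unc-68 being the other: ttn-1 at -3.74 (SE 0.48, adjusted p = 0.0287), unc-22 at -3.17 (SE 0.34, adjusted p = 0.0195), unc-52 at -3.18 (SE 0.47, adjusted p = 0.0403) and unc-89 at -2.84 (SE 0.35, adjusted p = 0.0238). Leaving out any of the other 10 libraries gave no call. The median ran from -1.66 without nth-1 agg to -0.52 without nth-1, and in the fit without nth-1 unc-15, mlc-3 and mlc-2, at -0.91, -0.77 and -0.51 with all libraries, turned positive.

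Within agg worms the mutants went opposite ways. ung-1 agg worms had a median of 0.606 times the agg level at 22 °C, with 15 of 37 genes at least 2-fold lower (28.2% of all), while nth-1 agg worms had 2.07 times the agg level at 20 °C, with none 2-fold lower (13.3% of all). ttn-1 was the lowest member in the first pair, at -3.30 on the log2 scale, and myo-2 the highest in the second, at 2.54. In edgeR the 2 pairs averaged to a median of 0.21 for glycosylase loss over wild type within agg, against 0.0036 over all genes, and no member passed, against 0.984% of all genes. unc-23 had the smallest adjusted p, 0.29, at 1.37 on the log2 scale (SE 0.43), 28 of 37 were positive (50.3% of all), 1 was higher and none lower at an unadjusted p under 0.05 (3% and 7.37% of all), DESeq2 called 1 member higher and none lower (0.828% and 3.88% of all), and without nth-1 anti, or without ung-1 anti, unc-23 rose, against 0.393% and 0.412% of all genes. Without the 3 nth-1 libraries, so at 22 °C only, 3 members fell, ttn-1, unc-22 and unc-52, against 1.11% of all genes. The average depended on single libraries, with 33 positive and a median of 0.67 without ung-1 agg, 30 and 0.45 without agg of 20 °C, 16 and -0.14 without nth-1 agg, and 18 and -0.017 without agg of 22 °C.

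For anti over no tau in mutant backgrounds the median was -0.75, with 3 of 37 positive (43.8% of all), and no member passed in edgeR, as no gene did (0% of all). At an unadjusted p under 0.05, 3 were lower and none higher (3.08% and 0.663% of all), and DESeq2 called none, against 0.0197% of all genes higher. That value averages 0.316 times in nth-1 anti over nth-1 with 1.01 times in ung-1 anti over ung-1. Without ung-1 anti 30 members fell in edgeR, against 8.86% of all genes, and that call then rests on the 1 library whose label was doubtful; without that library none passed (0% of all), 21 were positive and the median was 0.077, and without nth-1 7 were positive and the median was -0.32. Between the temperatures, wild type at 22 °C had 0.973 times the 20 °C level for the median gene. No member passed for 22 °C over 20 °C in edgeR, as no gene did (0% of all). None had an unadjusted p under 0.05, against 7.52% of all genes. DESeq2 called none, against 101 higher and 24 lower among all genes. The median over tau states was 0.10, against 0.03 over all genes. Without nth-1 anti none passed either (0.0131% of all genes higher), and the median ran from -0.065 without anti of 20 °C to 0.51 without agg of 20 °C.

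The size of the ratios followed the length of the gene. Across the 37 members, Spearman's rho between exon length and the log2 ratio was 0.57 for agg over wild type at 22 °C, 0.59 at 20 °C and 0.59 for nth-1 over wild type at 20 °C, against -0.07, 0.09 and 0.21 over 8792 other genes averaging 5 CPM or more. These rank correlations run across genes of the same libraries and are descriptions. The 5 members with at least 8000 exonic bases (ttn-1, unc-89, unc-22, unc-68 and unc-52) had median log2 ratios of 2.65, 2.47 and 3.95 in those pairs, against -0.03, 0.55 and 0.93 for 78 other genes of that length. The 5 members of 500 to 1000 bases had 0.56, 0.63 and 1.61, against -0.20, -0.41 and -0.61 for 1772 other genes. In these pairs the median member lay above the median of other genes in each length class that held members. act-2 and pat-3 lay below the median of their class in both agg pairs. Long genes as such had higher ratios than short ones at 20 °C. For ung-1 over wild type at 22 °C, rho was 0.48 across the members, against -0.01 over the other genes. The 5 members with at least 8000 exonic bases had a median log2 ratio of 1.18 in that pair, against 0.07 for the 78 other genes.

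**Figure D4:**
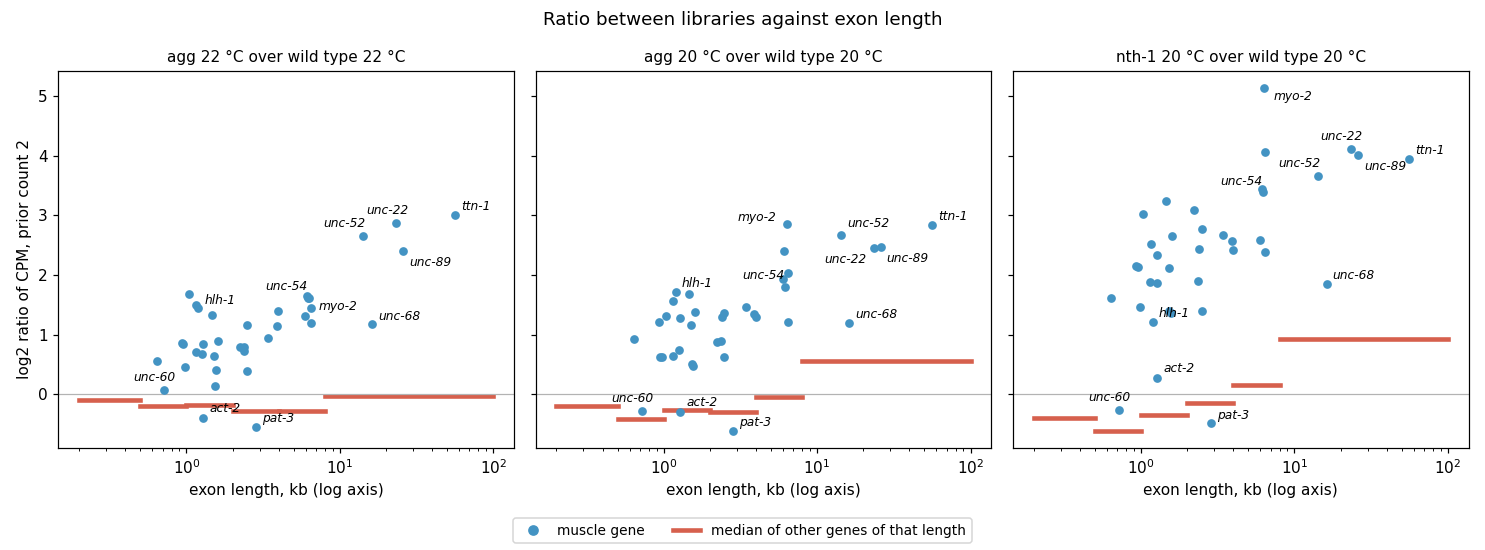
log2 ratio of CPM (prior count 2) against exon length in kilobases on a log axis for the 37 muscle genes (points), with the median of other genes in each length class (bars), for agg over wild type at 22 °C, agg over wild type at 20 °C and nth-1 over wild type at 20 °C. ttn-1, unc-22, unc-89 and unc-52 sit at the upper right of each panel, and act-2 and pat-3 sit below the bar of their length class in both agg panels.

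Muscle genes outside the 37 were counted from lists chosen with earlier results known. Of 33 other structural genes, none passed in edgeR for agg over no tau in wild-type backgrounds, 29 were positive and the median was 0.94, against 60.6% and 0.46 over all genes. Without nth-1 anti 17 of them rose and 1, the myosin chaperone unc-45, fell, against 17.3% and 18% of all genes. The 6 with the smallest p were tnt-3, a troponin T (2.01, SE 0.15), ketn-1, the actin-binding kettin (2.83, SE 0.29), cpn-3, a calponin (1.26, SE 0.15), zyx-1, a zyxin of the dense body (1.82, SE 0.24), dys-1, dystrophin (1.41, SE 0.24), and tln-1, talin (0.90, SE 0.17), with adjusted p between 0.00202 and 0.0149 in edgeR. For nth-1 over wild type all 33 were positive with a median of 1.19, none passed with all libraries, and 23 rose without nth-1 anti, against 18.5% of all genes, led by atn-1, the alpha-actinin of dense bodies (1.99, SE 0.33, adjusted p = 0.0092). ketn-1, tnt-3 and cpn-3 fell in the difference of the agg effect without nth-1 anti, at -3.68, -1.74 and -1.28, against 0.924% of all genes.

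Of 24 excitation and receptor genes that could be tested, 22 were positive for agg over no tau, with a median of 1.29, and none passed. Without nth-1 anti 7 rose (17.3% of all genes) and 1 fell (18% of all). Among those that rose was avr-15, a glutamate-gated chloride channel of the pharynx (1.71, SE 0.34, adjusted p = 0.0158), and the one that fell was the acetylcholine transporter snf-6 (-0.75, SE 0.14, adjusted p = 0.0146) in edgeR. For nth-1 over wild type 7 rose and 1 fell without that library, against 18.5% and 16.4% of all genes. The 7 that rose included sca-1, the sarcoplasmic calcium pump (0.94, SE 0.14), and csq-1, the calcium-storing calsequestrin (1.59, SE 0.26), with adjusted p of 0.00821 and 0.00938 in edgeR. Of the 6 muscle transcription factors, 1, ceh-22, a factor of pharyngeal muscle, passed for agg over no tau without nth-1 anti, with 0.441 and 0.590 CPM in agg worms of 22 °C and 20 °C and 0 in both wild types. In nth-1 over wild type without nth-1 anti, pha-4 rose and hnd-1 fell, 1 of 6 each way, against the same 18.5% and 16.4% of all genes.

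The summed levels of gene lists of other tissues also differed between these libraries. The summed level of 20 hypodermis and cuticle genes, which enclose the muscle, was 1.79 on the log2 scale above wild type in nth-1 worms and 1.82 in nth-1 agg worms, and 1.44 and 1.703 in agg worms at 20 °C and 22 °C, against 1.95, 1.97, 0.87 and 0.65 for the 37 muscle genes. The hypodermal sum was 8293, 3319 and 8114 CPM in nth-1 agg, nth-1 anti and nth-1 worms, against 6341, 2015 and 2341 CPM in agg, anti and wild-type worms of 20 °C. dpy-7, dpy-5, dpy-13, rol-6, sqt-1, bli-2 and ptr-4 were at 0 in at least 1 library. The sum of 14 sperm genes was 548, 48.1 and 484 CPM in nth-1 agg, nth-1 anti and nth-1 worms, against 142, 34.7 and 49.4 CPM in agg, anti and wild-type worms of 20 °C. Of the sperm genes, spe-38 was at 0 in 7 libraries, and spe-11, gsp-4, msd-1, ssp-16, spe-10 and spe-12 were each at 0 in at least 1. The sum of 15 oocyte and eggshell genes was lowest where muscle was highest, at 6234, 17239.9 and 7857 CPM in nth-1 agg, nth-1 anti and nth-1 worms, against 9754, 15087 and 14369.8 CPM in agg, anti and wild-type worms of 20 °C, with no gene at 0. The neuron sum of 15 genes was 375, 209.7 and 369.8 CPM in nth-1 agg, nth-1 anti and nth-1 worms, against 275, 178 and 176 CPM in agg, anti and wild-type worms of 20 °C, with cat-2 and tph-1 at 0 in wild type. The intestine sum of 11 genes, with none at 0, was 5473, 2473 and 5123 CPM in nth-1 agg, nth-1 anti and nth-1 worms, against 3909, 2701 and 2259.9 CPM in agg, anti and wild-type worms of 20 °C. At 22 °C it was 1.65 on the log2 scale above wild type in ung-1 agg worms, its highest library at 8798 CPM, 1.31 in anti, 1.02 in ung-1 anti and 0.56 in agg worms. The germline sum of 15 genes lay between 3034 CPM in agg worms and 5311 CPM in nth-1 anti worms, both of 20 °C. The part of other tissues in the muscle levels was not tested.

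With all libraries edgeR called 1 gene of these other-tissue lists for agg over no tau, the sperm gene spe-44, and none for nth-1 over wild type. Without nth-1 anti, edgeR called 14 of the 20 hypodermis and cuticle genes higher and 2 lower for agg over no tau, 3 of 14 sperm genes and 6 of 15 neuron genes higher, 12 of 15 oocyte genes and 12 of 15 germline genes lower, and 3 of 11 intestine genes higher, against 17.3% of all genes higher and 18% lower. For nth-1 over wild type it called 4 hypodermal genes higher and 1 lower, 9 sperm genes higher and 1 lower, 9 of 14 neuron genes higher, 14 oocyte genes lower, 1 germline gene higher and 2 lower, and 5 intestine genes higher, against 18.5% of all genes higher and 16.4% lower. Of 6 vitellogenin genes, 2 were lower for agg over no tau, against the 18% of all genes.

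**Figure D5:**
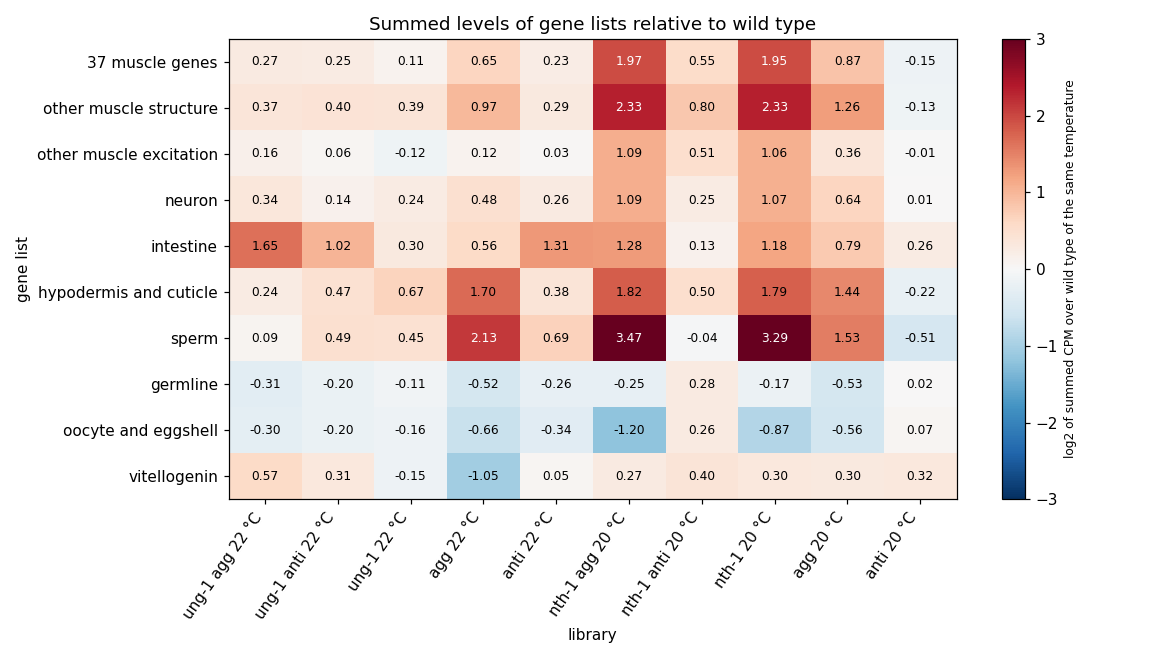
log2 of the summed CPM of each gene list in each library over the wild-type library of the same temperature; rows are lists, columns are the 10 libraries that are not wild type, and numbers in the cells are the plotted values. Muscle, hypodermis and cuticle, sperm and neuron sums are positive in nth-1 agg, nth-1 and both agg columns, where the 37 muscle genes have 1.97, 1.95, 0.65 and 0.87, and the oocyte and eggshell sum is negative there.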

How the data were processed

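Whole-worm RNA-seq was analysed from 12 tables of raw read counts per gene, 1 per library, deposited by the authors without normalization. Reads were aligned with HISAT2 to WBcel235, and edgeR 3.22.5 was used, per the submitters' processing notes; for the counting program, strand setting and annotation, a statement is not given in the sources used here. Of 46589 genes, 46180 matched the Ensembl annotation of WBcel235 by sequence name.

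Groups came from the genotype, tau and temperature labels. Counts were TMM-scaled and tested with edgeR 4.0.16 (quasi-likelihood, R 4.3.3, limma 3.58.1) after its design-based low-count filter, which 15245 genes and all 37 members passed, with Benjamini-Hochberg adjustment over all genes tested and a threshold of 0.05. Comparisons of tau states used 4 backgrounds with agg and anti terms that could differ between mutant and wild-type backgrounds (4 residual degrees of freedom); comparisons of backgrounds and temperatures used additive terms (6 residual degrees of freedom). SE is the unshrunk log2 fold change divided by the root of its F value. Ratios of single libraries used a prior count of 2 and carry no test. Both fits were run on simulated data with a small set of changed genes, with the sign and bias of the fold changes as the only criteria. The simulated data held no library set apart from the fitted terms. They do not bear on how calls changed when libraries were left out.

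Named genes were, in each role class, the member with the highest mean RPKM and that with the widest log2 CPM range, plus, outside the members, up to 6 genes per comparison past the threshold by smallest p; other names are marked where they appear, and ceh-22, hnd-1 and pha-4 complete counts. The members and lists were chosen with earlier results of these data known. Alternatives were DESeq2 size factors and the DESeq2 1.42.0 test, total counts, no low-count filter, scaling without germline, oocyte, sperm, vitellogenin and cuticle genes, and leaving out libraries. A filter by tau state, leaving out nth-1 and nth-1 agg together, and the nth-1 minus ung-1 comparison were added after the data were seen. Near-identical actin and light chain genes, and 16 members whose exons overlap another gene's (5 by over 100 bases), have uncertain counts. Not every gene of the lists is reported here by name.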

Additional observations from a re-analysis of the deposited data

How the results depend on the processing

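The number of the 37 genes past the threshold in edgeR depended on the setting. For agg over no tau in wild-type backgrounds it was 0, and became 1 with total counts, 1 with no low-count filter, 13 with the DESeq2 test, 27 without the 3 nth-1 libraries and 26 without nth-1 and nth-1 agg; leaving out 1 library at a time gave 0 to 29. For agg over anti it was 0, and became 1, 1, 16, 21 (7.52% of all genes higher and 4% lower) and 24 under the same settings, and 0 to 26 with 1 library left out. For nth-1 over wild type it was 0, and became 4 with total counts and 33 with DESeq2, and 0 to 30 with 1 library left out. The difference of the agg effect gave 4 with DESeq2, 4 without the 3 nth-1 libraries and 0 to 4 with 1 library left out; glycosylase loss within agg gave 1, 3 and 0 to 1. The nth-1 effect minus the ung-1 effect gave 1 with DESeq2 and 0 to 15 with 1 library left out, and anti over no tau in mutant backgrounds 0 to 30. The cause of these changes was not tested, apart from the single-library terms named above. Calls over all genes moved with the setting too, though not by the same share. For nth-1 over wild type without ung-1 agg, 23 of the 37 genes rose and none fell, against 3.98% and 6.12% of all genes. For agg over no tau without nth-1 anti, 28 rose and 1 fell, against 17.3% and 18% of all genes. The shares of all genes with total counts, with no low-count filter and without nth-1 and nth-1 agg are not given here. For agg over no tau edgeR called 1.51% of all genes, and DESeq2 12.5% higher and 11.5% lower. For agg over anti the shares were 0.977%, and 8.71% and 4.97%. For nth-1 over wild type they were 0%, and 16.8% higher. Leaving out 1 library also changed how many of all genes were called. With total counts the median of all genes for agg over no tau was 0.67, against 0.46 with TMM.

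Members changed sign under some settings, 3 of them from values far from 0. For agg over no tau unc-60 was 0.10 with total counts, 0.0064 with no filter and -0.27 to 0.052 with 1 library left out. In the difference of the agg effect unc-60 was -0.15 and act-2 -0.018 with total counts; with 1 library left out, unc-60 ran from -0.049 to 0.28, mlc-2 from -0.94 to 0.077, unc-15 from -1.57 to 0.14 and mlc-3 from -1.34 to 0.068, where mlc-2, unc-15 and mlc-3 were -0.51, -0.91 and -0.77 with all libraries and were positive without nth-1. For nth-1 over wild type unc-60 was 0.072 with no filter, 0.011 with the filter by tau state and 0.27 without nth-1 and nth-1 agg, and pat-3 was 0.079 in the last; with 1 library left out, unc-60 ran from -0.15 to 0.13 and pat-3 from -0.29 to 0.028. Replicates could not be paired, because the labels give no replicate numbers and each strain and temperature has 1 library. The background terms of the fits did compare tau states within each background and its temperature. Depth limits hlh-1 and myo-1, with 1 and 3 reads in their lowest libraries.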
